A study of Bos taurus with 39 samples.

Results

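Bovine oocytes that matured inside their cumulus-oocyte complexes (COCs) were compared with oocytes that had been stripped of their cumulus cells beforehand and then shared the medium with COCs. Both were sampled after 1 h and after 6 h of maturation, and the comparison rests on 12 microRNA (miRNA) libraries of the 39 in the series, chosen by the labels control and coculture at these 2 times, with 3 libraries per group and time. Control oocytes stayed enclosed by cumulus cells during culture and were freed by vortexing in hyaluronidase afterwards. Co-culture oocytes (cocult) were denuded in hyaluronidase before culture and lay apart from the COCs, on the other side of a porous insert, so that they had no cell contact. After culture, denuded oocytes were treated with pronase, which removes the zona pellucida, so the groups differed in enclosure, in the time of stripping and in this enzyme, and these cannot be told apart. All oocytes came from slaughterhouse ovaries, were cultured in serum-free medium with epidermal growth factor, and were pooled from repeat cultures before a library was made. The study's methods select oocytes by a polar body, which forms late in maturation, and do not say how oocytes were selected at 1 and 6 h. The replicate number in the labels was taken as the pairing of control with co-culture at each time.

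In the COC, cumulus cells reach the oocyte through projections across the zona pellucida that end in gap junctions, channels that pass small molecules between both cells. MicroRNAs are short RNAs that guide Argonaute proteins to messenger RNAs, mostly through the seed, the bases 2 to 8 from their 5′ end, and lower the translation or stability of these targets. The oocyte is at the germinal vesicle stage early in maturation and breaks down its germinal vesicle within the following hours, at a time when it transcribes little. The comparison therefore asks what the oocyte's miRNA content is after a short loss of contact with its cumulus cells, with the medium still conditioned by them.

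No miRNA passed the threshold for differential expression at either time, and the profiles of co-culture and control oocytes had no shared direction of change between 1 and 6 h. In edgeR's fit of both times, the smallest p belonged to predicted miR-725, which was higher in co-culture oocytes in 6 of 6 replicate pairs, followed by predicted miR-85, which was lower in 6 of 6 pairs. With DESeq2, predicted miR-85 came before predicted miR-725. Predicted miR-485 was also lower at both times, with large differences between the control libraries. The 10 known miRNAs with the highest mean level, among them members of the let-7, miR-10 and miR-16 families, had small fold changes at 1 h. Their intervals lay within 1 log2 unit at 1 h and were wider at 6 h. With libraries scaled to their deduplicated reads, 3 of these 10 intervals lay within 1 log2 unit at 1 h.

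Among the leading miRNAs, those with a sequence in the study's list of predicted miRNAs were predicted miR-485 and predicted miR-432, and predicted miR-484 is set beside them since it differs from predicted miR-485 by 1 base and had other values. Predicted miRNAs are loci that the miRPro pipeline called from the reads, and they carry here the number given to them in the study. The seed is in capitals.
predicted miR-485: gGGGAUGUagcucagugg
predicted miR-484: gGGGGUGUagcucagugg
predicted miR-432: uGCGGGAUcuuuaguugugg

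The substitution between predicted miR-485 and predicted miR-484 is A5G, counted from the 5′ end, and it lies in the seed. Their precursors were placed on chromosome 23 of the ARS-UCD1.2 assembly, at chr23:30170729-30170841 and chr23:30149569-30149678, both on the plus strand. The precursor of predicted miR-432 was placed at chr21:21809645-21809752 on the plus strand. Both sequences from chromosome 23 begin as a tRNA for alanine does, which is background on the sequence and was not tested here. The counts of predicted miR-484 were repeated in every library by predicted miR-486 and predicted miR-504, so reads of these copies cannot be assigned to a single locus.

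The 12 libraries held between 20180 and 165238 counts on miRNAs, with a median of 61918. Known miRNAs took 37.8% to 50.6% of the counts. Levels are given as CPM, which are counts scaled to a library total of 1000000, here with TMM factors taken over all 39 libraries, so that they can be compared between times. They are shares of a library, and fewer oocytes in a pool and less RNA per oocyte cannot be told apart. A floor of 3 counts was between 18.2 and 148.7 CPM of the raw library total, without TMM factors. The highest floor was in control replicate 1 at 6 h, which had the lowest total while co-culture replicate 1 at 6 h had the highest. With TMM factors, 3 counts in control replicate 1 at 6 h were 158.1 CPM. Totals were higher in the co-culture library in 5 of 6 pairs, by a mean of 0.66 ± 1.21 on the log2 scale (SD, n = 6 pairs, exact two-sided sign-flip permutation test p = 0.156, where 0.0312 is the smallest possible). The share of known miRNAs, co-culture minus control, differed by a mean of -2.92 ± 5.33 percentage points (SD, n = 6 pairs, exact two-sided sign-flip permutation test p = 0.312). It was higher in co-culture in 3 of 6 pairs. The mean difference was -0.04 at 1 h and -5.8 at 6 h, where control replicate 1 had 50.6% and its co-culture pair 37.8%. Replicates of a group differed by more than sampling noise in every pair of libraries, with a chi-square per degree of freedom of 5.68 to 15.8.

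In the 12 libraries, 1303 of the 1995 listed miRNAs had a count, 386 known and 917 predicted. At 1 h, 1083 were found in both groups, 76 in control oocytes alone and 82 in co-culture oocytes alone. At 6 h, 1063 were found in both, 41 in control oocytes alone and 121 in co-culture oocytes alone, with the deeper libraries on the co-culture side. Of those found in 1 group alone at 1 h, 4 had a count in every control library and 5 in every co-culture library. The corresponding numbers at 6 h were 0 and 14, and none of the 14 summed to more than 14 counts over the co-culture libraries.

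At 1 h, the low-count filter left 443 miRNAs for the test, of which 118 were known and 325 predicted, and 0 were called, which took an adjusted p under 0.05 and a log2 fold change of 1 or more in size (edgeR's quasi-likelihood test, 0% of those tested). The smallest adjusted p was 0.953. An unadjusted p under 0.05 was reached by 10 miRNAs, 5 higher and 5 lower in co-culture, which is 2.26% of those tested. DESeq2 also called 0, with 3 miRNAs at an unadjusted p under 0.05. The 95% interval of the fold change lay within 1 log2 unit of no change for 258 of the 443 miRNAs. When libraries were instead scaled to their deduplicated reads, the median log2 fold change of all miRNAs moved from 0.02 to 0.42, 43 of the 44 miRNAs with an unadjusted p under 0.05 were on the higher side, 90 intervals lay within 1 log2 unit, and 0 miRNAs were called. The changes at 1 h are therefore given relative to the profile as a whole.

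At 6 h, 393 miRNAs were tested, 103 known and 290 predicted, and again 0 were called (0%), with a smallest adjusted p of 0.846. An unadjusted p under 0.05 was reached by 14 miRNAs, 7 in each direction, which is 3.56%. DESeq2 called 0, with 5 at an unadjusted p under 0.05. The interval lay within 1 log2 unit for 55 miRNAs at this time. The interval's median half-width was 1.04 log2 units at 6 h and 0.68 at 1 h. Without replicate 1, whose control library was the shallowest, 103 of 413 miRNAs had an interval within 1 log2 unit at 6 h, against 1 of 418 without replicate 2 and 5 of 399 without replicate 3.

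The joint fit of both times tested 478 miRNAs. For the mean of the effects at 1 and 6 h it called 0 (0%), and 17 miRNAs, 11 higher and 6 lower, had an unadjusted p under 0.05 (3.56%). The smallest adjusted p was 0.0899, that of predicted miR-725. DESeq2 called 2 miRNAs for this mean, predicted miR-725 and predicted miR-85, with 15 at an unadjusted p under 0.05. The same 2 miRNAs were called by edgeR when the 6 h pair of replicate 1 was left out, a setting chosen after seeing the data, each with an adjusted p of 0.041. For the difference between the effects at 6 h and 1 h, 0 miRNAs were called (0%), 17 had an unadjusted p under 0.05 (3.56%), and DESeq2 called 0 with 12 at an unadjusted p under 0.05.

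Predicted miR-725 was at 343.2, 330.4 and 348.7 CPM in control replicates 1 to 3 at 1 h, and at 516.3, 713.1 and 537.0 CPM in the co-culture replicates. The 6 h levels were 316.1, 303.6 and 296.8 CPM in control and 621.4, 1025.1 and 828.7 CPM in co-culture oocytes. The groups did not overlap at either time, and the control libraries lay close together. These levels rest on 6 to 31 counts per control library and 41 to 102 per co-culture library. The log2 fold change of co-culture over control was 0.77 at 1 h (SE 0.24, adjusted p = 0.953), 1.37 at 6 h (SE 0.43, adjusted p = 0.846) and 1.1 for the mean of both (SE 0.20, 95% interval 0.66 to 1.54, adjusted p = 0.0899). At 22 h, the groups overlapped, with 499.6, 427.8 and 468.7 CPM in control and 599.8, 385.6 and 599.2 CPM in co-culture, and a log2 fold change of 0.14 (SE 0.28, adjusted p = 0.990). In denuded oocytes cultured alone (DO), the level was 560.4, 442.4 and 566.6 CPM at 1 h and 670.3, 902.2 and 568.3 CPM at 6 h, above all control libraries of the same time. In oocytes enclosed in COCs with carbenoxolone, a blocker of gap junctions (CBX), it was 316.9, 407.5 and 432.8 CPM at 1 h and 435.1, 496.4 and 625.6 CPM at 6 h. The CBX libraries overlapped with control at 1 h and were above all control libraries at 6 h. The DO and CBX values are given beside the others without a test.

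Across the 478 miRNAs of the joint fit, 2 had groups that did not overlap at either time with co-culture higher (0.418%), and 0 with co-culture lower (0%). The 2 were predicted miR-725 and predicted miR-210, which was at 99.6, 62.9 and 47.5 CPM in control and 188.9, 168.4 and 124.9 CPM in co-culture at 1 h, on 17 counts or fewer per library. Its mean log2 fold change over both times was 1.1 (SE 0.37, adjusted p = 0.771). At 1 h alone, groups did not overlap for 13 miRNAs higher in co-culture (2.93% of those tested) and 12 lower (2.71%). The corresponding numbers at 6 h were 25 (6.36%) and 16 (4.07%).

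**Figure D1:**
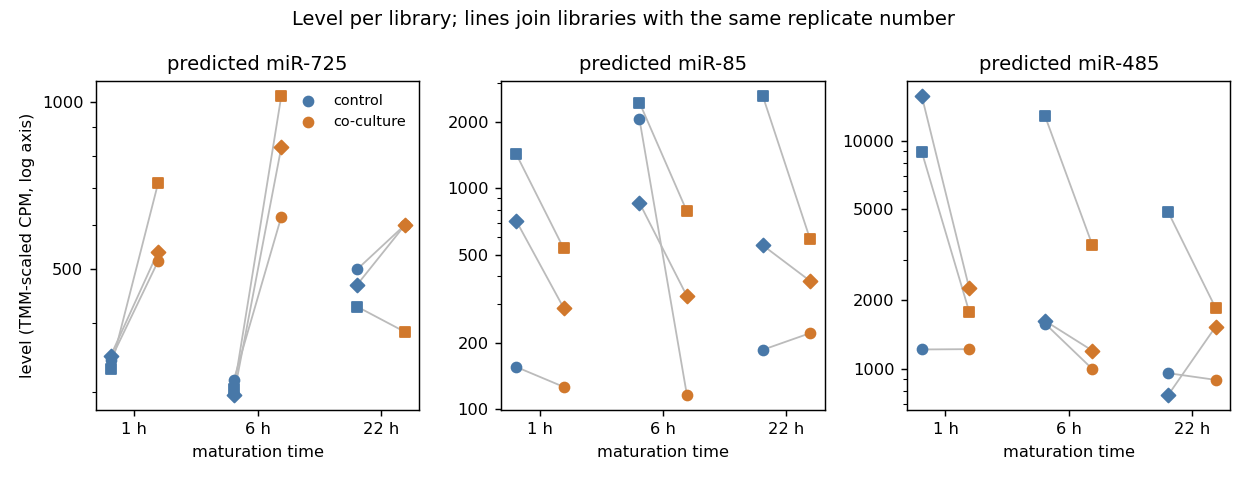
Level of predicted miR-725, predicted miR-85 and predicted miR-485 in each control (blue) and co-culture (orange) library at 1, 6 and 22 h, in TMM-scaled CPM on log axes. Circles, squares and diamonds are replicates 1, 2 and 3, and grey lines join libraries with the same replicate number. The co-culture end of every line is the higher one for predicted miR-725 at 1 and 6 h and the lower one for predicted miR-85 at these times from control levels that range from 155.0 to 2448.9 CPM.

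Predicted miR-85 was at 155.0, 1431.9 and 713.1 CPM in control replicates 1 to 3 at 1 h and at 125.9, 534.8 and 287.2 CPM in co-culture. By 6 h it was at 2054.9, 2448.9 and 859.2 CPM in control and at 115.8, 787.1 and 325.0 CPM in co-culture. The groups overlapped at 1 h and did not at 6 h, and each co-culture library was below its own control. The log2 fold change was -1.15 at 1 h (SE 0.31, adjusted p = 0.953), -2.39 at 6 h (SE 0.68, adjusted p = 0.846) and -1.82 for the mean of both (SE 0.42, 95% interval -2.74 to -0.91, adjusted p = 0.263). The control level of replicate 1 at 6 h rests on 39 counts in the shallowest library. Without the 6 h pair of replicate 1, the mean fold change was -1.32 on the log2 scale, and without replicate 1 at both times it was -1.45 with an adjusted p of 0.0249. At 22 h the log2 fold change was -0.98 (SE 0.35, adjusted p = 0.375), with 2 of 3 pairs lower. In DO, predicted miR-85 was at 186.8, 2035.3 and 295.1 CPM at 1 h and at 279.8, 818.7 and 270.6 CPM at 6 h. In CBX oocytes it was at 222.7, 873.3 and 298.2 CPM at 1 h and at 140.6, 386.1 and 573.5 CPM at 6 h. DO and CBX overlapped with control at 1 h and were below all control libraries at 6 h, as co-culture was. These values are given without a test.

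Predicted miR-485 was at 1217.7, 8921.7 and 15673.5 CPM in control at 1 h, against 1221.6, 1782.7 and 2260.3 CPM in co-culture. At 6 h the control libraries were at 1580.7, 12790.9 and 1624.7 CPM and the co-culture libraries at 999.1, 3478.0 and 1202.4 CPM. High levels occurred in control replicates 2 and 3 at 1 h and in control replicate 2 at 6 h, while control replicate 1 at 1 h was below the 3 co-culture libraries of that time and control replicates 1 and 3 at 6 h lay within the co-culture range. The log2 fold change was -1.80 at 1 h (SE 0.53, adjusted p = 0.953) and -1.08 at 6 h (SE 0.38, adjusted p = 0.846), and 5 of 6 pairs were lower. Leaving out 1 replicate number moved it between -2.56 (without replicate 1) and -1.21 (without replicate 3) at 1 h, and between -1.41 (without replicate 3) and -0.60 (without replicate 2) at 6 h. Predicted miR-484, its neighbour in sequence, was at 287.8, 629.4 and 380.3 CPM in control and 277.1, 435.8 and 487.0 CPM in co-culture at 1 h. Its log2 fold changes were -0.10 at 1 h and -0.12 at 6 h.

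These 3 miRNAs, predicted miR-725, miR-85 and miR-485, were the ones that had an unadjusted p under 0.05 at both times, 3 of the 10 at 1 h and 3 of the 14 at 6 h. All 3 kept their direction from 1 h to 6 h. Predicted miR-85 and predicted miR-485 were also the 2 miRNAs whose log2 fold change was 1 or more in size at both times. Of the 385 miRNAs tested at both times, 3 reached that size at 1 h and 31 at 6 h, and without replicate 2 predicted miR-485 did not reach it at 6 h.

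The remaining miRNAs with the smallest p at 1 h were led by predicted miR-735, at 8977.9, 7206.6 and 4374.0 CPM in control and 11220.8, 9814.7 and 7442.9 CPM in co-culture. It was higher in 3 of 3 pairs while the groups overlapped, with a log2 fold change of 0.51 (adjusted p = 0.953). Predicted miR-514 had nearly the same counts and a log2 fold change of 0.50, so reads may have been shared between these loci. Predicted miR-802 was higher in 3 of 3 pairs (log2 fold change 0.50), and predicted miR-194 was lower in 3 of 3 (log2 fold change -1.14, on 8 to 25 counts per library, and -1.54 to -0.71 when 1 replicate number was left out). The known miRNA with the smallest p at 1 h was bta-miR-107, whose host gene encodes a pantothenate kinase, at 631.0, 377.6 and 554.7 CPM in control and 214.1, 316.9 and 374.6 CPM in co-culture. Its log2 fold change was -0.79 at 1 h (SE 0.30, adjusted p = 0.953) and 0.03 at 6 h. The 1 h value was -0.41 without replicate 1 and -1.06 without replicate 2. Its relative bta-miR-103, which shares its seed, had log2 fold changes of -0.17 and 0.02.

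At 6 h, the smallest p belonged to predicted miR-432, at 685.0, 425.0 and 421.8 CPM in control and 67.0, 109.8 and 178.7 CPM in co-culture. The groups did not overlap, and the log2 fold change was -2.22 (SE 0.57, adjusted p = 0.846), on 6 to 27 counts per library. At 1 h it was -0.10, with co-culture replicate 2 at 643.8 CPM as the highest of the 6 libraries. The known miRNA bta-miR-132, which is induced by gonadotropin signalling in granulosa cells, was at 316.1, 263.1 and 187.5 CPM in control and 109.7, 109.8 and 65.0 CPM in co-culture at 6 h (log2 fold change -1.50, SE 0.42, adjusted p = 0.846). At 1 h its log2 fold change was 0.27. It was counted 4 to 18 times per library at 6 h. The 6 h levels in CBX oocytes (93.7, 147.1 and 86.9 CPM) and in DO (99.1, 0 and 40.6 CPM) were also below all control libraries, without a test.

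Bta-miR-184 had a log2 fold change of -1.47 at 6 h and 0.35 at 1 h, and its level ran from 132.8 to 3052.6 CPM among the control libraries at 1 h and from 312.4 to 11637.3 CPM at 6 h. The highest control library was replicate 2 at both times. Bta-miR-532 had log2 fold changes of 0.33 at 1 h and -1.30 at 6 h. Bta-miR-199a-3p, known from stromal and mesenchymal cells, had -0.78 and 1.39, on 2 to 6 counts per control library at 6 h. None of these passed the adjusted threshold.

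The miRNAs with the smallest p for the mean of both times included, besides the 3 above, 5 that were higher in co-culture in 6 of 6 pairs. Predicted miR-212, which had the highest mean level of all those tested at both times, was at 81786.1, 77352.6 and 62059.9 CPM in control and 84741.9, 86500.3 and 76726.8 CPM in co-culture at 1 h. At 6 h it was at 77874.9, 85994.7 and 63705.9 CPM in control and 100308, 110710 and 106935 CPM in co-culture, where the groups did not overlap. Its mean log2 fold change was 0.33 (SE 0.10, 95% interval 0.11 to 0.55, adjusted p = 0.771). Bta-miR-34b, of the family that p53 induces, had a mean log2 fold change of 0.79 (SE 0.25, adjusted p = 0.771), with 0.23 at 1 h and 1.30 at 6 h, where the control libraries held 1, 6 and 8 counts. Predicted miR-171 and predicted miR-871 had mean log2 fold changes of 0.86 and 0.73, each with an adjusted p of 0.771. Over all 478 miRNAs, 16 were higher in co-culture in 6 of 6 pairs (3.35%) and 7 were lower in 6 of 6 (1.46%), several of them repeating each other's counts.

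The direction of change at 1 h did not carry over to 6 h across the profile. Of 385 miRNAs tested at both times, 189 (49.1%) had a fold change of the same sign at both. Pearson's r between the fold changes was 0.05 and Spearman's rho was -0.004, as a description across miRNAs that share libraries and in part reads. The share of the same sign was 36.4% in the lowest tertile by mean level, 56.7% in the middle and 54.3% in the highest, where r was 0.23. Leaving out 1 replicate number at a time gave shares between 43.4% and 56.1%, the highest without replicate 1. The median absolute log2 fold change was 0.18 at 1 h and 0.35 at 6 h.

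**Figure D2:**
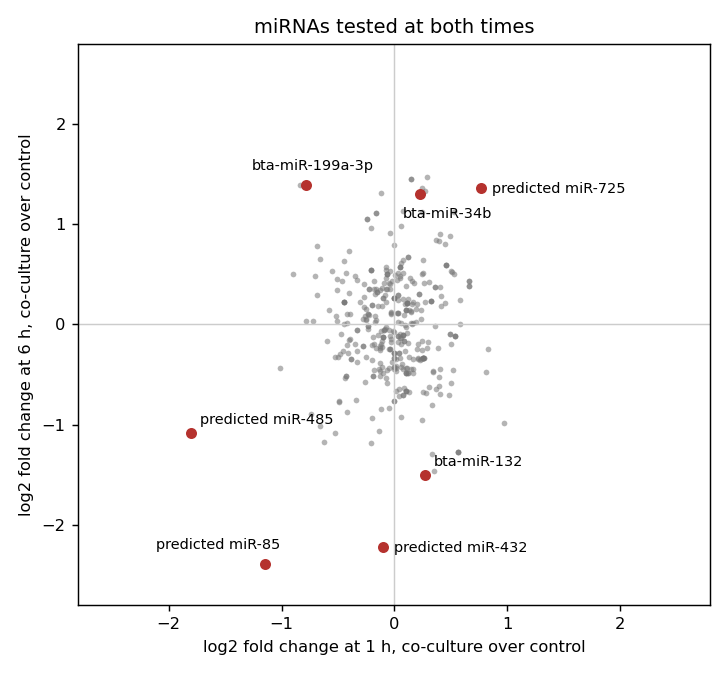
Log2 fold change of co-culture over control at 1 h (horizontal) and at 6 h (vertical) for the 385 miRNAs tested at both times, 1 point each, with 7 named miRNAs in red. Points spread more widely along the vertical axis than the horizontal, and 189 lie in the quadrants of equal sign. Predicted miR-485 and predicted miR-85 lie past -1 on both axes.

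The replicate pairs of a single time were no more alike. Over the same 385 miRNAs, the log2 differences of co-culture over control correlated between pairs at -0.12 to 0.002 within 1 h and at -0.10 to 0.12 within 6 h. Between the times, pairs with the same replicate number correlated at -0.25, 0.20 and 0.16, and pairs with other numbers at -0.15 to 0.17. These are descriptions over miRNAs, and pairs with the same number may share an ovary pool.

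**Figure D3:**
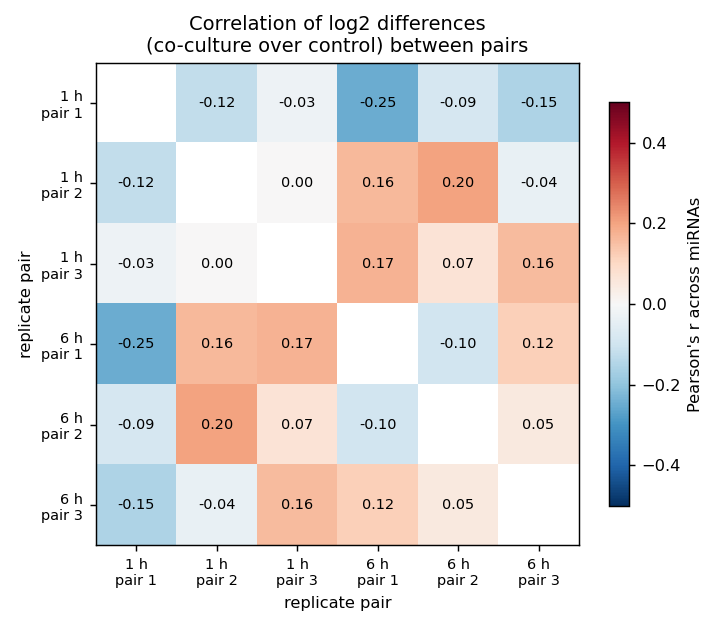
Pearson's r of the log2 difference (co-culture over control) between each 2 of the 6 replicate pairs, over 385 miRNAs. Each cell gives r on a colour scale from -0.5 (blue) to 0.5 (red), and the diagonal is left blank. The values run from -0.25 to 0.20, and those within a time are no higher than those between times.

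The 10 known miRNAs with the highest mean level were bta-miR-16b, bta-miR-10b, bta-miR-148a, bta-let-7a-5p, bta-let-7f, bta-miR-16a, bta-miR-122, bta-let-7i, bta-miR-7 and bta-miR-30d. Bta-miR-16b, of the miR-15/16 family that targets cell cycle genes, was at 67407 ± 11410 CPM (SD, n = 3) in control and 73119 ± 3763 CPM (SD, n = 3) in co-culture at 1 h. At 6 h it was at 77504 ± 10823 and 65186 ± 10095 CPM (SD, n = 3 each). Its log2 fold change was 0.13 at 1 h, with a 95% interval of -0.20 to 0.46, and -0.33 at 6 h, with an interval of -0.96 to 0.30. All 10 known miRNAs with the highest mean level had an interval within 1 log2 unit at 1 h, with fold changes from -0.34 (bta-miR-10b) to 0.17 (bta-miR-148a). Scaled to deduplicated reads, they ran from 0.081 to 0.58 and 3 of the 10 intervals lay within 1 log2 unit. At 6 h, their fold changes ran from -0.64 (bta-let-7i) to 0.62 (bta-miR-16a), and the intervals of bta-miR-16b, bta-miR-7 and bta-miR-30d stayed within 1 log2 unit. Control replicate 1 at 6 h was the highest of the 12 libraries for bta-miR-16b, bta-miR-10b, bta-miR-148a, bta-let-7a-5p, bta-let-7f and bta-let-7i, and the lowest for bta-miR-16a, which was at 5585.1 CPM there. Without replicate 1, the fold changes of the 10 at 6 h ran from -0.09 to 0.24 and all 10 intervals lay within 1 log2 unit, whereas without replicate 2 or replicate 3 none did.

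Bta-miR-10b was the abundant known miRNA nearest to a shift in 1 direction, at 54708.6, 46449.3 and 43803.3 CPM in control and 32692.8, 43893.9 and 38775.5 CPM in co-culture at 1 h. It was lower in 3 of 3 pairs at 1 h and in 2 of 3 at 6 h, with a mean log2 fold change of -0.34 (95% interval -0.75 to 0.08, adjusted p = 0.959).

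**Figure D4:**
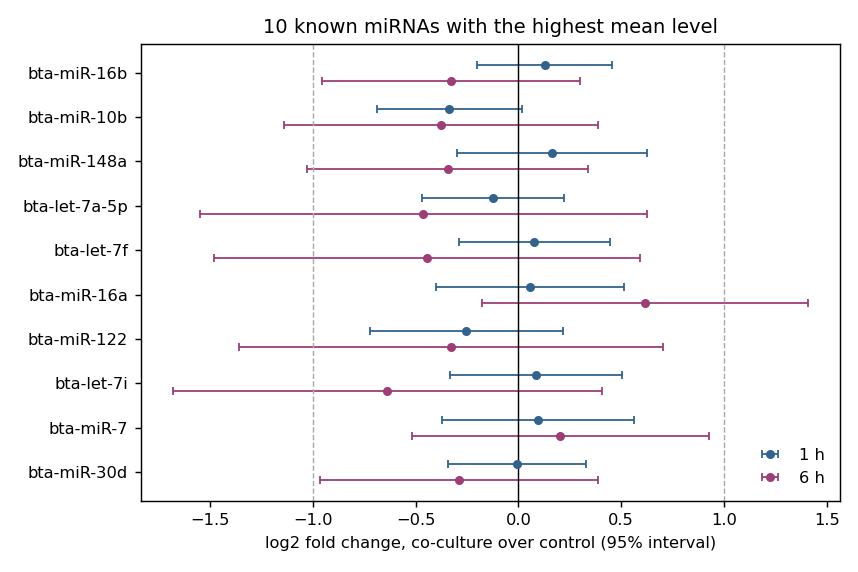
Log2 fold change of co-culture over control with its 95% interval for the 10 known miRNAs with the highest mean level, at 1 h (blue) and 6 h (purple). Dashed lines mark 1 log2 unit in each direction, and every interval at 1 h lies between them. The intervals at 6 h are wider and those of 7 miRNAs cross a dashed line.

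By family, the let-7 miRNAs, which are linked to differentiation and cell cycle exit, had 8 of 10 members tested at each time, 0 of them with an unadjusted p under 0.05. That p was reached by 2.26% of all miRNAs tested at 1 h and 3.56% at 6 h, so a count of 0 in lists of this size sets none of the families here apart from the rest. Their median log2 fold change was 0.11 at 1 h and -0.45 at 6 h, beside 0.02 and -0.02 over all miRNAs tested. The summed let-7 level was 56707 to 112018 CPM in the control libraries at 6 h and 42548 to 68896 CPM in the co-culture libraries, and the highest value came from control replicate 1. The miR-17-92 and miR-106b-25 clusters, which act in cell proliferation, had 9 of 15 members tested at 1 h and 8 at 6 h, 0 with an unadjusted p under 0.05, and medians of -0.03 and 0.17. The corresponding medians were 0.08 and 0.31 for the family of miR-15, miR-16 and miR-195, -0.01 and -0.04 for the miR-30 family, and 0.01 and -0.19 for miR-10, miR-99/100 and miR-125. In the families of miR-26 and miR-29, of miR-23, miR-24 and miR-27, and of miR-148 and miR-152, 0 members had an unadjusted p under 0.05 at either time. The bovine miR-2284 and miR-2285 group had 2 of 148 members tested, and 112 had no count in the 12 libraries.

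Markers of other cells the pools could hold were read as lists. Of 14 miRNAs linked to granulosa and cumulus cells, 5 were tested at each time, and 1, bta-miR-132 at 6 h, had an unadjusted p under 0.05, beside 2.26% of all miRNAs tested at 1 h and 3.56% at 6 h. At 6 h, 2 of the 5 had a log2 fold change above 0 and 3 below, from -1.50 (bta-miR-132) to 0.80 (bta-miR-424-5p). The summed level of the 14 was 6420 to 9542 CPM in control and 6695 to 8992 CPM in co-culture at 1 h, and 4531 to 6483 CPM against 5053 to 8474 CPM at 6 h, so the groups overlapped at both times. Bta-miR-21-5p, the most abundant of them, was at 4259 ± 1355 and 4152 ± 749 CPM at 1 h and at 3268 ± 49.7 and 3558 ± 1727 CPM at 6 h (control and co-culture, SD, n = 3 each). Its log2 fold change was -0.01 at 1 h (95% interval -0.46 to 0.44) and -0.07 at 6 h (95% interval -0.86 to 0.73). At 22 h, bta-miR-21-5p was lower in co-culture, by -0.86 on the log2 scale (SE 0.18, adjusted p = 0.0157), short of the fold threshold. Whether the effect at 22 h differs from those at 1 and 6 h was not tested.

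Of 8 miRNAs linked to blood and immune cells, 2 were tested and 0 had an unadjusted p under 0.05. Bta-miR-150, 1 of the 2, had log2 fold changes of -0.40 at 1 h and 0.73 at 6 h, and the other was bta-miR-155. The list summed to 682 to 1074 CPM in control and 425 to 812 CPM in co-culture at 1 h, and to 2348 to 4163 CPM against 915 to 3575 CPM at 6 h. Bta-miR-155, an miRNA of activated immune cells that was also followed at 22 h, was at 287.8, 456.3 and 158.5 CPM in control and 403.0, 198.1 and 62.4 CPM in co-culture at 1 h. Its 6 h levels were 4057.1, 1841.7 and 2374.5 CPM in control and 1626.6, 439.3 and 2924.8 CPM in co-culture. Its log2 fold changes were -0.53 and -1.09, with overlapping groups and adjusted p-values of 0.953 and 0.846. At 22 h it was -1.67 (SE 0.29, edgeR adjusted p = 0.00207), past the thresholds for both the adjusted p and the fold change. The study reported no differentially expressed miRNA between control and co-culture at any of its times. The reason for this difference at 22 h was not tested. Of 8 stromal and endothelial miRNAs, 2 were tested. An unadjusted p under 0.05 was reached by 0 of them at 1 h and by 1, bta-miR-199a-3p, at 6 h and for the difference between times. Of all miRNAs tested, 2.26% reached it at 1 h, 3.56% at 6 h and 3.56% for the difference. The log2 fold change of bta-miR-199a-3p was 1.39 at 6 h. The other tested member, bta-miR-143, had log2 fold changes of -0.18 at 1 h and -0.45 at 6 h. The summed levels of the groups overlapped at both times, as did those of the 5 epithelial miR-200 family miRNAs.

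The muscle miRNAs were low in most libraries and high in a few. Bta-miR-206, which marks skeletal muscle, was at 33.2, 4657.5 and 0.0 CPM in control at 1 h and at 158.1, 12345.7 and 0.0 CPM at 6 h. In co-culture it was at 25.2, 69.3 and 1273.8 CPM at 1 h and at 176.7, 3313.3 and 81.2 CPM at 6 h. It was below the low-count filter at each time alone. The control libraries with the high values, replicate 2 at both times, were also the highest for bta-miR-184, and predicted miR-485 was at 8921.7 and 12790.9 CPM in them. At 1 h, however, predicted miR-485 was highest in control replicate 3, at 15673.5 CPM, where bta-miR-206 was at 0.0 CPM and bta-miR-184 at 190.2 CPM. The part of these high levels in the fold changes above was not tested.

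The study named 18 miRNAs as differentially expressed in other comparisons. Predicted miR-79 at 1 h and predicted miR-137 and miR-672 at 6 h were named from comparisons that used these same co-culture libraries. Their values here are not independent of that naming. Of the 18 miRNAs, 16 were tested between control and co-culture at 1 h, 15 at 6 h and 17 in the joint fit, and 0 were called. Those with an unadjusted p under 0.05 were predicted miR-485 at 1 h, predicted miR-485 and predicted miR-432 at 6 h, and predicted miR-485 in the joint fit, all lower in co-culture. These are 1 of 16, 2 of 15 and 1 of 17, beside 2.26%, 3.56% and 3.56% of all miRNAs tested. The median log2 fold change of the list was 0.01 at 1 h and -0.07 at 6 h. Apart from these 2, the members ranged in the joint fit from -0.79 (predicted miR-879) to 0.69 (predicted miR-318-0), both with an adjusted p of 0.959. The value of predicted miR-318-0 was 0.16 without replicate 3, 0.34 without replicate 1 and 1.67 without replicate 2, and control replicate 1 at 6 h held 0 counts of it, beside 246 in its co-culture pair. Predicted miR-79 was at 863.5, 283.2 and 2456.4 CPM in control and 251.9, 386.3 and 1211.3 CPM in co-culture at 1 h, with a log2 fold change of -0.84 at 1 h and 1.39 at 6 h. Predicted miR-824 had log2 fold changes of -0.44 and -0.54, and predicted miR-137 of 0.25 and 0.64, all with intervals that included 0.

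In the test of the difference between the times, the smallest p belonged to predicted miR-749, whose counts are shared with predicted miR-750. It was at 287.8, 251.8 and 206.0 CPM in control and 201.5, 217.9 and 212.3 CPM in co-culture at 1 h. In the 6 h libraries it was at 158.1, 161.9 and 109.4 CPM in control and 310.7, 311.2 and 292.5 CPM in co-culture, without overlap. The difference of its fold changes was 1.33 log2 units (SE 0.46, adjusted p = 0.927). Bta-miR-532 had a difference of -1.50, bta-miR-132 of -1.66 and predicted miR-597, whose counts are shared with predicted miR-598 and miR-599, of -1.83, all with the same adjusted p. For predicted miR-725 the difference was 0.65 (95% interval -0.23 to 1.53) and for predicted miR-85 it was -1.37 (95% interval -3.20 to 0.46), so neither differed detectably between 1 and 6 h.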

How the data were processed

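The libraries were made with the QIAseq miRNA kit from pooled bovine oocytes. The authors trimmed the reads, removed duplicates by unique molecular identifier, aligned them to ARS-UCD1.2 and deposited raw counts per mature miRNA for 1030 known miRNAs of miRBase and 965 miRNAs predicted with miRPro. The submitters' notes name FastQC 0.11.9 and UMI-tools 1.1.2. How reads shared between loci were counted is not given in the sources used here. Of the miRNAs with a count in the series, 281 repeat the counts of another in every library.

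Groups and replicate numbers come from the sample titles. Each time was fitted on its own 6 libraries, and both together on 12, with edgeR 4.0.16 (limma 3.58.1, R 4.3.3) with quasi-likelihood fits of the edgeR 3 kind (legacy option), filterByExpr (minimum count 10, minimum total 15), TMM and Benjamini-Hochberg adjustment over all miRNAs tested. The study's methods entered the ovary pool as a batch, and the replicate number of the labels stood for it as a block here. Standard errors are the log2 fold change over the root of F, and intervals are 95%. Floors and intervals of counts cover counting error only. The fit was also run on simulated counts with known changes and the same spread for every miRNA. That run does not show how the fit behaves on these libraries. P-values measure the spread between these pools.

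The miRNAs named are the 8 with the smallest p at 1 h, at 6 h and for the mean of both, the 5 with the smallest p for the difference between times, the 10 known miRNAs with the highest mean CPM, 18 that the study names in other comparisons, and list members as examples. Bta-miR-155 and the unfiltered calls in the last section were named after their values were seen. The comparison, the members and the lists were chosen with earlier results of these data known. The alternatives were no block, RLE size factors, library sizes from the deduplicated reads, DESeq2 1.42.0, the edgeR 4 fit, the robust option, other low-count filters, known and predicted miRNAs apart, copies collapsed, no fold threshold, 1 fit over 39 libraries, a block within each time, and leaving out each replicate. The omission of the 6 h pair of replicate 1 was added after seeing the data.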

Additional observations from a re-analysis of the deposited data

Results flagged for a closer look

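Bta-miR-301a was higher in co-culture oocytes in 3 of 3 pairs at 1 h and lower in 3 of 3 pairs at 6 h. It was at 132.8, 78.7 and 63.4 CPM in control and 201.5, 168.4 and 112.4 CPM in co-culture at 1 h, where each co-culture library was above its control. By 6 h its levels were 158.1, 81.0 and 296.8 CPM in control and 73.1, 54.9 and 97.5 CPM in co-culture, where each was below. The difference of the log2 fold changes, 6 h minus 1 h, was -2.17 (SE 0.77, edgeR adjusted p = 0.927), on 3 to 19 counts per library, so the test of the difference did not pass the threshold. Across its alternatives the difference ran from -2.52 to -1.67.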

How the results depend on the processing

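At 1 h, 13 of 14 alternatives gave 0 calls, and 11 were called without a low-count filter. At 6 h, 13 of 14 gave 0, and 1 (predicted miR-85) was called with at least 10 counts in every library. For the mean of both times, 11 of 16 gave 0. Calls there numbered 1 without the replicate block (predicted miR-725, adjusted p = 0.0464), 1 in 1 fit over all 39 libraries (predicted miR-725, adjusted p = 0.0152), 2 with DESeq2, 0 to 1 when each replicate was left out, and 2 without the 6 h pair of replicate 1. The difference between times gave 0 calls under 16 of 16, and removing the fold threshold added 0. The mean log2 fold change of predicted miR-725 ran from 0.92 to 1.30 over its alternatives (adjusted p 0.0152 to 0.993) and that of predicted miR-85 from -2.02 to -1.32 (adjusted p 0.00158 to 0.981).

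The deviations of same-numbered libraries from their group means correlated at 0.20, 0.20 and 0.36 at 1 h and at 0.069, 0.18 and 0.15 at 6 h, and 11 of 12 libraries correlated best with their own number in the other group. As 1 of these is under 0.1 and no label ties a number to a pool, the replicate block rests on the study's use of the pool as a batch. Without it, 0 were called at 1 h, at 6 h and for the difference.

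Leaving out each replicate gave 150 to 175 intervals within 1 log2 unit at 1 h and 1 to 103 at 6 h. With the omission of the 6 h pair of replicate 1 included, there were 160 to 324 for the mean and 2 to 76 for the difference. Deduplicated library sizes gave 90 at 1 h, 14 at 6 h and 1 for the difference. No low-count filter gave 25 at 6 h and 18 for the difference, 1 fit over 39 libraries 181 at 6 h, at least 10 counts in every library 171 for the mean, on fewer miRNAs, and no replicate block 26 for the difference. The share of the same sign at 1 and 6 h ran from 43.4% without replicate 2 to 56.1% without replicate 1. Fewer samples entered the fits that left out a replicate or a pair.

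Of the single log2 fold changes, 873 values kept their direction and call, 9 passed the threshold in the same direction and 47 changed sign, all for means of both times. Deduplicated library sizes, which moved the median of all miRNAs to 0.20 for the mean, turned bta-miR-16b to 0.15, bta-miR-148a to 0.19, bta-let-7f to 0.039, bta-miR-30d to 0.12, bta-miR-21-5p to 0.24, bta-miR-92a to 0.10, bta-miR-103 to 0.18, bta-miR-2285bf to 0.083, and predicted miR-79 to 0.26, miR-484 to 0.12, miR-457 to 0.17 and miR-895 to 0.077. Bta-miR-21-5p turned to 0.034 without the replicate block, 0.026 without a low-count filter, 0.048 with known and predicted apart and 0.015 in the fit over 39 libraries. Bta-miR-206 turned to -1.82 without the replicate block, -1.13 in the fit over 39 libraries, -0.30 with the edgeR 4 fit and -0.66 with a block within each time, which also turned predicted miR-79 to 0.27. Predicted miR-906 turned to -0.072 without the replicate block.

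Leaving out a replicate, or its 6 h pair, gave ranges across 0 for bta-miR-16b (-0.15 to 0.048), bta-miR-148a (-0.27 to 0.22), bta-let-7a-5p (-0.60 to 0.057), bta-let-7f (-0.45 to 0.11), bta-let-7i (-0.41 to 0.035), bta-miR-7 (-0.072 to 0.31), bta-miR-21-5p (-0.18 to 0.17), bta-miR-206 (-3.08 to 3.27), bta-miR-92a (-0.39 to 0.077), bta-miR-103 (-0.22 to 0.067), and predicted miR-79 (-0.33 to 0.66), miR-484 (-0.24 to 0.11), miR-457 (-0.11 to 0.070), miR-895 (-0.28 to 0.17), miR-906 (-0.27 to 0.61) and miR-321 (-0.25 to 0.69). Beyond the smaller number of samples or miRNAs, the cause was not tested. In control replicate 1 at 6 h, a count of 0 allows a level of up to 158.1 CPM with TMM factors, the level of 3 counts.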

Other observations

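Without a low-count filter, 11 miRNAs were called at 1 h, all lower in co-culture oocytes, and for 6 of them at least 90% of the control counts came from control replicate 3. Predicted miR-669 had 0, 2 and 307 counts in control replicates 1 to 3 and 0 in each co-culture library. Predicted miR-693 had 0, 0 and 181 counts in control and 0 in co-culture, predicted miR-16 had 0, 0 and 79, and predicted miR-451 had 0, 0 and 79 with 1 count in co-culture replicate 1. Predicted miR-296 and predicted miR-327 each had 0, 0 and 50 counts in control and 0 in co-culture. In the other 38 libraries of the series, no library held more than 4 counts of predicted miR-669 or more than 1 of predicted miR-693. Predicted miR-869 was instead counted 62 times in control replicate 2 and predicted miR-820 59 times there. Predicted miR-485 and predicted miR-371 had their highest count in control replicate 3 with a lower one in replicate 2. The remaining call was predicted miR-623, with 13, 7 and 10 counts against 3, 2 and 0 in co-culture.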
